A study of Mus musculus with 10 samples.

Results

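The T cell receptor alpha V (Trav) segments were examined in tumor-draining lymph nodes (TDLNs) of mice treated by microwave ablation (MWA), with or without the glycolysis inhibitor 2-deoxy-D-glucose (2DG). Every gene whose mouse symbol starts with Trav was taken, including the segments whose names also carry a delta V (dv) name, which gave 115 of the 33585 genes in the files. The mice were female wild-type BALB/c, 6 weeks old, and all carried an implanted 4T1 mammary carcinoma, inoculated on day 0 and ablated by MWA on day 10. The MWA group (5 mice) received PBS, and the MWA+2DG group (5 mice) received 2DG at 500 mg/kg intraperitoneally every 2 days from day 10. TDLNs of both groups were collected on day 15, and 1 RNA-seq library per mouse gave FPKM values, that is, fragments per kilobase of gene and per 1000000 fragments. The comparison of the groups asks how inhibiting glycolysis after ablation alters the draining lymph node. No mice without a tumor or without MWA were among these libraries, and a TDLN holds many cell types besides T cells.

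A T cell receptor alpha chain is assembled by V(D)J recombination, which joins 1 of many V segments to 1 of many J segments, and the joined exon is spliced to the constant region Trac. The V segment encodes most of the variable domain, including the loops that contact the MHC molecule, and each mature T cell transcribes the V segments it has rearranged. In bulk RNA the level of a V segment therefore sums over all T cells that use it. The mouse locus holds repeated blocks of V segments, and the copies are told apart by the letters d and n in their names. The dv segments can be joined in alpha or in delta chains.

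All 115 segments matched a transcript in the GENCODE M21 annotation (GRCm38, from the C57BL/6J strain, on chromosome 14), in which 104 were V genes and 11 were V pseudogenes. Over the last 270 bases of the transcripts, the median identity of a segment to its nearest relative of the same family was 99.26%. It was 100% for 33 segments and at least 99% for 54, while 9 segments had no relative in their family. For 33 segments no stretch of 150 bases, the read length, was unique among the Trav transcripts, and for 44 segments every such stretch was. Counts of reads can thus be divided among near-identical copies in ways that these values do not show, and the mice were of another strain than the reference. The last 150 bases of 3 sets of copies are printed 5′ to 3′ on the transcript strand, because they hold the segments with the most separate groups (Trav13-1 and Trav10d) and a set in which identical copies were listed at different levels. Capitals mark positions at which the copies of a set differ.
Trav13-1: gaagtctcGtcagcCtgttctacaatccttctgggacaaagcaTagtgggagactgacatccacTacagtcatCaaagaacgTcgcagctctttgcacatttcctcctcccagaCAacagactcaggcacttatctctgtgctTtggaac
Trav13d-1: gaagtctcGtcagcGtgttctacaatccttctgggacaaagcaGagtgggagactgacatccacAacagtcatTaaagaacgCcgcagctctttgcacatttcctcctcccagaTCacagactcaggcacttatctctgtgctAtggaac
Trav13n-1: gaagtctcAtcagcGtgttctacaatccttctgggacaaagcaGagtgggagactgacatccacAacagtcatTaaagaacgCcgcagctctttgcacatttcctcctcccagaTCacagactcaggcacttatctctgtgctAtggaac
Trav10: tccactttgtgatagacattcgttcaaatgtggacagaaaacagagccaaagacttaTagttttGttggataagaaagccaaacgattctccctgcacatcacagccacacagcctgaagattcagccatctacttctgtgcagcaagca
Trav10d: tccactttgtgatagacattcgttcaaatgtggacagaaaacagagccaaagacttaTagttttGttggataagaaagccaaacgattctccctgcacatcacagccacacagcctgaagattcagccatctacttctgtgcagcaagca
Trav10n: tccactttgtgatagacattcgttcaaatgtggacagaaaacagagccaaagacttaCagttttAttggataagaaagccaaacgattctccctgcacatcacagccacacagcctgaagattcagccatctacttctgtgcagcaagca
Trav6-6: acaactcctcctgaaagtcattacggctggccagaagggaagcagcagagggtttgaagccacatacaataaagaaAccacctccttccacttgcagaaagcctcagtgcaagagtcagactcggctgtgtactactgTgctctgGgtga
Trav6d-6: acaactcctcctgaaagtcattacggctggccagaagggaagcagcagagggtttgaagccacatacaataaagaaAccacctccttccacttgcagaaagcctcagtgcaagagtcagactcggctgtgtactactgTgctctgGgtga
Trav6n-6: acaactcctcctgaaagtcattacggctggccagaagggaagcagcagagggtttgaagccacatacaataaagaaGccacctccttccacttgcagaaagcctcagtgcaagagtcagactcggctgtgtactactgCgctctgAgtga

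In this window Trav13-1 differed from Trav13d-1 at 8 positions and from Trav13n-1 at 9, and all of its stretches of read length were unique. Trav10 and Trav10d were identical in the window and 99.26% identical over the longer one. Over the whole transcript, 65.8% of the stretches of Trav10d were unique. Trav6-6 and Trav6d-6 were identical in both windows and had no unique stretch.

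Across the series, markers of T cells (8 genes, summed level 590 to 1034 FPKM per library) and of B cells (8 genes, 1459 to 1765 FPKM) were present in every library, as in a lymph node. Of the 6 thymocyte markers, Rag1, Rag2 and Ptcra, which mark cells still rearranging their receptors, each had a mean under 0.1 FPKM. Dntt was at 0.324 FPKM, and Themis and Cd1d1, which other cells of the node also express, were at 3.15 and 9.24 FPKM. Replicates 1 and 2 of both groups stood apart from replicates 3 to 5: 6 liver genes summed to 61.8 to 69.9 FPKM in the former and to 114 to 209 FPKM in the latter. The sets were seen in the data and are not named in the labels, so the Trav results are also given within each set. Depth is unknown, since FPKM values hold no read counts.

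Of the 115 segments, 61 averaged 1 FPKM or more across the mice and were tested, and 54 lay below this level, 20 of them under 0.1 FPKM. The 61 tested segments held 87.9% ± 2.00 of the summed Trav FPKM in the MWA group and 87.7% ± 1.11 in the MWA+2DG group (SD, n = 5 each). Trav13n-1 was listed at 0 in all 10 libraries, 36 segments were listed at 0 in some, and 78 at 0 in none. All 11 pseudogenes were below the threshold, the highest being Trav4d-2 with a mean of 0.951 FPKM. The signal was thus spread over many segments at low levels, with 3 of them at or above 5 FPKM.

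Trav8d-1 had the highest level per length, 6.70 ± 0.948 FPKM in the MWA group and 7.38 ± 2.44 FPKM in the MWA+2DG group (SD, n = 5 each). Trav14d-3-dv8, Trav7-4, Trav6-6, Trav3-3 and Trav16d-dv11 followed with means over the 10 mice of 5.995, 5.71, 4.90, 4.78 and 4.43 FPKM. The next 6, from Trav6d-7 (4.11 FPKM) to Trav12-3 (3.48 FPKM), were Trav6d-7, Trav7-3, Trav7d-4, Trav6n-6, Trav9d-1 and Trav12-3. Successive segments in this order of levels differed by less than 1 SD over the 10 mice, so that neighbours are not ranked by these data. Copies of identical sequence were listed at unequal levels. Trav6-6 had a mean of 4.90 FPKM and Trav6d-6 of 2.27 FPKM, Trav14n-1 of 2.86 FPKM and Trav14d-1 of 1.03 FPKM, and Trav6d-7 of 4.11 FPKM and Trav6n-7 of 0.412 FPKM. Levels of single copies in such sets are uncertain, and the sum over the set is the safer quantity.

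**Figure D1:**
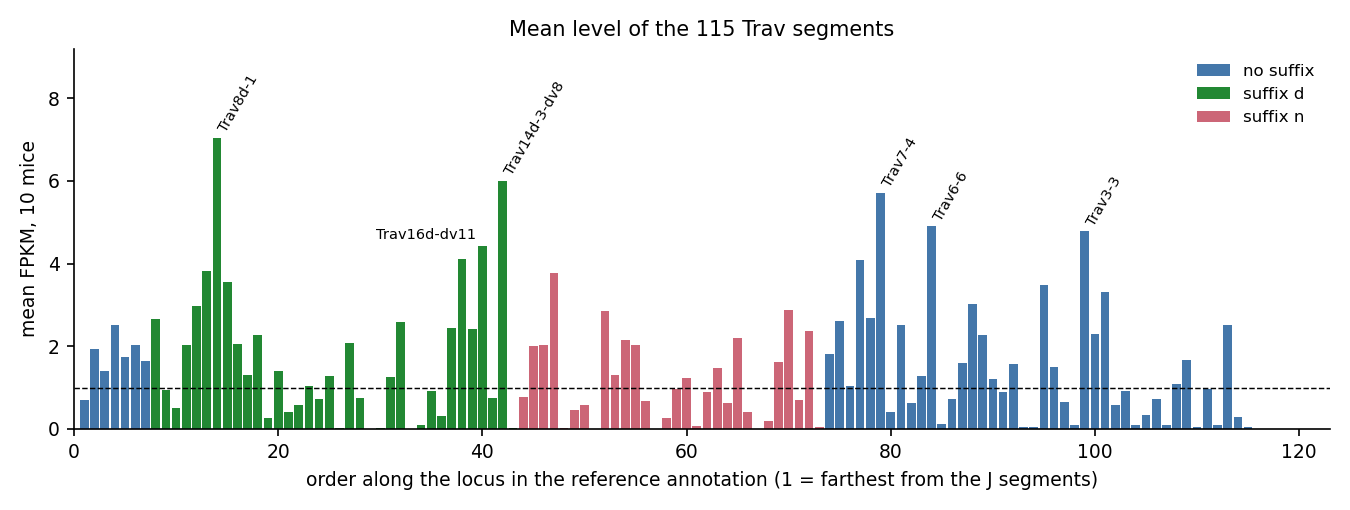
Mean FPKM over the 10 mice (y axis) of the 115 Trav segments in their order along the locus (x axis), coloured by the copy letter in the name; the dashed line marks 1 FPKM, the minimum for testing. Trav8d-1 is highest at 7.04 FPKM, and high and low segments are interspersed along the whole order.

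Segments lay along the locus with no block that held most of the signal. The first 39 segments in locus order, farthest from the J segments, held 36.6% ± 1.36 of the Trav signal in the MWA group, the middle 38 held 31.4% ± 1.44 and the last 38 held 32.1% ± 0.779. With 2DG the same stretches held 36.6% ± 2.02, 32.0% ± 0.584 and 31.3% ± 2.29 (SD, n = 5 each). Among families, Trav6 (15 segments) had the highest summed level, 28.6 ± 2.32 FPKM in the MWA group and 34.7 ± 7.82 FPKM in the MWA+2DG group, followed by Trav7, Trav14 and Trav9. At the other end, Trav18, a family of 1 segment, was listed at 0 in every MWA library and had a mean of 0.0669 FPKM with 2DG.

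The 10 dv segments made up 11.8% ± 0.399 of the Trav signal in the MWA group and 10.9% ± 1.73 in the MWA+2DG group. Of the 5 tested, Trav14d-3-dv8, Trav16d-dv11 and Trav4-4-dv10 were the highest, and the log2 fold changes of all 5 ranged from -0.19 to 0.31, with none past the study's rule. Segments known from semi-invariant receptors were low. Trav1, used by mucosal-associated invariant T cells, had 0.583 ± 0.505 FPKM in the MWA group and 0.794 ± 0.319 FPKM in the MWA+2DG group. Trav11 and Trav11d, used by invariant natural killer T cells, had means of 0.114 and 0.272 FPKM over the 10 mice, and the pseudogene Trav11n was listed above 0 in 1 library. None of these 4 reached the level for testing.

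Summed over all 115 segments, the Trav signal was 180.0, 152.6, 145.7, 152.2 and 177.5 FPKM in MWA replicates 1 to 5. In MWA+2DG replicates 1 to 5 it was 236.9, 211.3, 181.0, 175.5 and 128.5 FPKM. The groups overlapped: MWA+2DG replicates 1 to 3 were above the whole MWA range, and replicate 5 was below it. The means were 161.6 ± 15.9 FPKM for MWA and 186.6 ± 40.9 FPKM for MWA+2DG (SD, n = 5 each), a ratio of 1.155, and the difference of 25.0 FPKM was smaller than the SD of the MWA+2DG group. Without MWA+2DG replicate 5 the ratio was 1.245, and without MWA+2DG replicate 1 it was 1.077. In a bulk library, fewer T cells and less T cell receptor RNA per cell cannot be told apart.

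Trac, the constant region that is spliced to every rearranged alpha V segment, gives a reference for the same transcripts. The ratio of summed Trav FPKM to Trac FPKM was 1.273, 1.223, 1.465, 1.573 and 1.501 in MWA replicates 1 to 5. It was 1.511, 1.546, 1.304, 1.405 and 1.382 in MWA+2DG replicates 1 to 5. The means of 1.41 ± 0.151 and 1.43 ± 0.0987 (SD, n = 5 each) differed by less than the spread of either group. Relative to the constant region, the summed V signal of all 10 mice lay between 1.22 and 1.57.

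**Figure D2:**
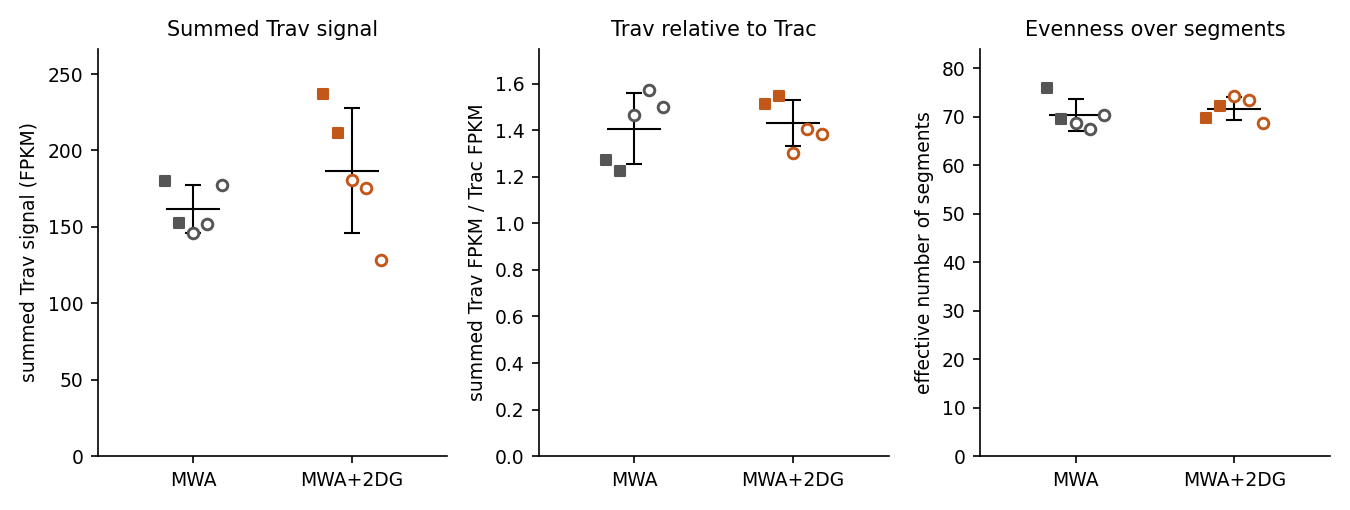
Summed Trav FPKM, its ratio to Trac FPKM, and the effective number of segments (y axes) in each mouse of the MWA and MWA+2DG groups (x axis); filled squares are replicates 1 and 2, open circles replicates 3 to 5, and bars are mean and SD (n = 5). The summed signal of MWA+2DG mice runs from 128.5 to 236.9 FPKM and spans the MWA range, while the effective number stays between 67.4 and 75.9 in all 10 mice.

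The evenness of segment use was similar in both groups. The effective number of segments, the exponential of the Shannon entropy of the shares (the number of equally used segments that would give the same evenness), was 70.3 ± 3.29 in the MWA group and 71.6 ± 2.34 in the MWA+2DG group (SD, n = 5 each). The 10 segments of highest mean held 28.2% ± 1.42 and 27.7% ± 2.20 of the signal, and the leading segment of a mouse held 3.57% to 4.63%. Between any 2 mice, 14.04% to 18.8% of the Trav signal lay on different segments. The median was 17.3% over the 10 pairs within the MWA group, 15.5% over the 10 within the MWA+2DG group, and 16.5% over the 25 pairs between groups, which lay between the 2 within-group medians. No single segment dominated in any mouse. These values were computed on single copies, and 33 of the segments have no unique stretch of read length. Division of reads among copies can therefore alter both the evenness and the distances between mice. No version with copies summed is given, so the values do not measure segment use by T cells directly.

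By segment, each was compared between the groups with limma on log2(FPKM + 1), fitted over the 13334 genes that averaged 1 FPKM or more. The study's rule calls a gene at an unadjusted P below 0.05 and a log2 fold change beyond 0.25. By this rule 7 of the 61 tested Trav segments (11.5%) were higher with 2DG, against 0.952% of all genes tested, and 0 were lower, against 1.87%. The 7 were Trav13-1, Trav10d, Trav7-1, Trav6-2, Trav12n-2, Trav6d-5 and Trav5d-4. None passed an adjusted p of 0.05 (limma with Benjamini-Hochberg adjustment over all genes, smallest adjusted p 0.9955), as for every gene of the table. At an unadjusted P below 0.05 alone the count was 8 of 61 (13.1%), against 4.25% of all genes, and an exact Wilcoxon rank-sum test in place of limma called 3 (4.92%, against 0.502%). After rescaling every library to the same total, 12 of 61 passed the rule (19.7%, against 2.46%). Without MWA+2DG replicate 5 the count was 15 of 63 (23.8%, against 1.66%), and without MWA+2DG replicate 1 it was 3 of 59 (5.08%, against 0.624%).

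For segments described one by one, a two-sided exact permutation test over the mice was also run, whose smallest possible p with 5 mice a group is 0.00794. It was run on all 61 tested segments and is given without adjustment, beside the adjusted p of limma. Groups that do not overlap always give the smallest possible p, whatever the gap between them. For segments named for separate groups, the permutation p therefore restates the separation and is no further evidence.

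Most tested segments, 43 of 61 (70.5%), had a log2 fold change above 0, against 52.6% of all genes. Their median log2 fold change was 0.14, against 0.01 over all genes tested, and their range was -0.40 to 0.55. The segments of 1 mouse share a library and a T cell pool, so they are not independent of each other. Trav3-1 and Trav3-4 were at the lower end, with log2 fold changes of -0.40 and -0.26, and neither passed the study's rule.

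**Figure D3:**
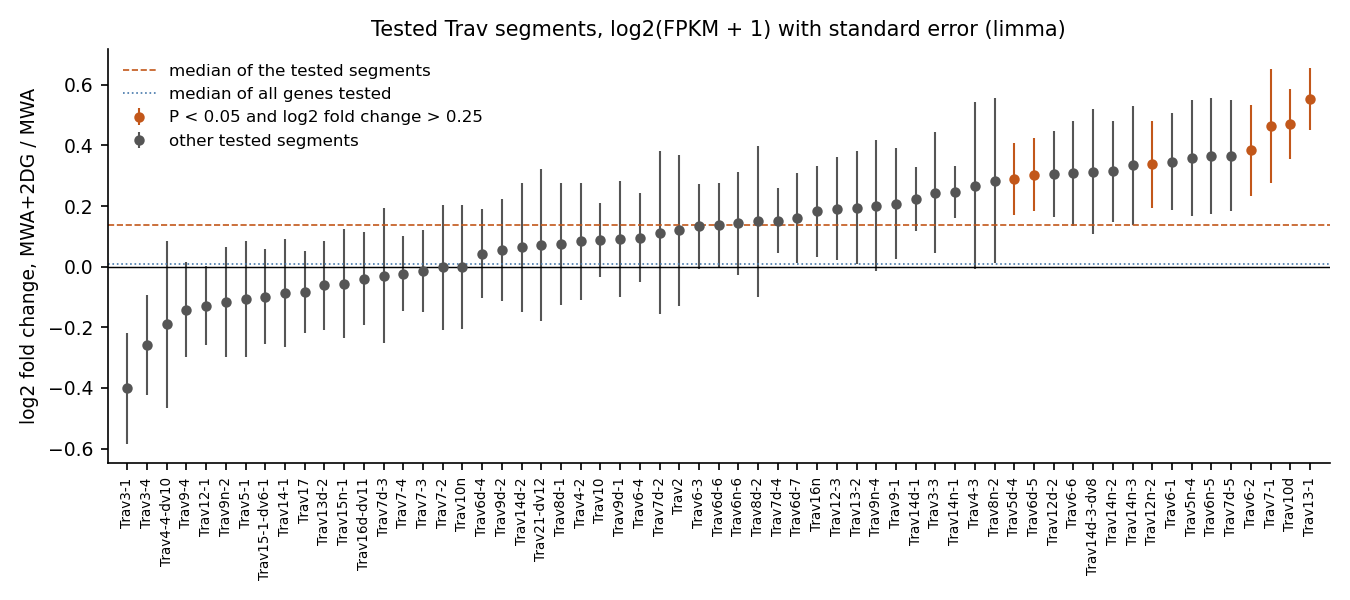
Log2 fold change of MWA+2DG over MWA on the log2(FPKM + 1) scale (y axis) for the 61 tested Trav segments in order of size (x axis); points are limma estimates, bars are standard errors, and the horizontal lines are the medians of the tested segments and of all genes. The 7 segments past the study's rule are coloured and lie between 0.29 and 0.55.

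On the log2(FPKM + 1) scale Trav13-1 had the largest difference of the tested segments. It was at 1.91, 2.70, 1.92, 2.26 and 2.45 FPKM in MWA replicates 1 to 5, and at 3.65, 4.18, 4.32, 3.82 and 2.90 FPKM in MWA+2DG replicates 1 to 5. All 5 MWA+2DG mice lay above all 5 MWA mice. The log2 fold change was 0.55 (standard error 0.10, exact permutation p = 0.00794, limma adjusted p = 0.9955). Leaving out any 1 mouse kept it between 0.51 and 0.62. The permutation p follows from the separation of the groups and adds no evidence to it.

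Trav10d was lower in level and also had separate groups. Its values were 1.01, 1.23, 0.558, 0.855 and 1.00 FPKM in the MWA replicates and 1.52, 2.30, 1.69, 1.38 and 1.49 FPKM with 2DG. The lowest MWA+2DG mouse lay above the highest MWA mouse, and the log2 fold change was 0.47 (standard error 0.12). The MWA mean of 0.932 FPKM is below the threshold of 1 FPKM, so Trav10d entered the fit through its MWA+2DG level, and its values are given as a description. Among the 56 tested segments with both group means at or above 1 FPKM, 6 passed the rule (10.7%, against 0.884% of all such genes) and 2 had separate groups (3.57%, against 0.274%). Its near-identical copies Trav10 and Trav10n did not pass the rule, and summed over the 3 copies the groups overlapped, with 4.17 ± 0.850 FPKM and 5.06 ± 1.45 FPKM (SD, n = 5 each).

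Trav6d-5 was the remaining segment with separate groups, so that 3 of 61 (4.92%) were separate and higher with 2DG, against 0.292% of all genes tested, and 0 were separate and lower, against 0.51%. It was at 2.07, 0.993, 1.895, 1.93 and 1.89 FPKM in the MWA mice and at 2.69, 2.39, 2.09, 2.09 and 2.59 FPKM in the MWA+2DG mice. The highest MWA and lowest MWA+2DG values, 2.07 and 2.09 FPKM, were close, and the MWA mean rested in part on replicate 2. The log2 fold change was 0.30 (standard error 0.12, exact permutation p = 0.00794, limma adjusted p = 0.9955). It fell to 0.19 without MWA replicate 2, and the call was lost without that mouse or without MWA+2DG replicate 1 or 5. Here too the permutation p follows from the separation, however narrow, and adds no evidence to it.

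In the other 4 segments past the study's rule the groups overlapped. Trav7-1 was at 2.38, 2.13, 1.18, 0.698 and 1.47 FPKM in the MWA replicates and at 1.91, 2.25, 3.18, 3.03 and 2.04 FPKM in the MWA+2DG replicates, so that replicates 1 and 2 of both groups were alike and the MWA values of replicates 3 to 5 were low. Trav6-2 was at 1.02, 1.52, 0.950, 1.08 and 1.81 FPKM and at 2.39, 1.88, 2.76, 1.57 and 1.33 FPKM. Both had only unique stretches of read length. Trav5d-4 was at 2.88, 1.72, 1.93, 1.71 and 2.24 FPKM in the MWA mice and at 3.17, 3.24, 2.76, 2.48 and 2.20 FPKM with 2DG. Trav12n-2 was at 2.05, 1.49, 2.16, 1.37 and 1.25 FPKM and at 2.57, 3.13, 2.69, 1.90 and 1.61 FPKM. Both had no stretch of read length of their own, and the identical copies Trav5n-4 and Trav12d-2 had log2 fold changes of 0.36 and 0.31 without passing the rule. The log2 fold changes of the 4 ran from 0.29 (Trav5d-4) to 0.46 (Trav7-1). Their exact permutation p ran from 0.0476 (Trav6-2) to 0.0714 (Trav7-1 and Trav12n-2), each with a limma adjusted p of 0.9955. Each of the 4 calls was lost in 5 or 6 of the 10 fits with 1 mouse left out, whereas that of Trav13-1 was kept in all 10. The call of Trav10d was also kept, but it entered the fit through its level with 2DG, so this is a description.

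**Figure D4:**
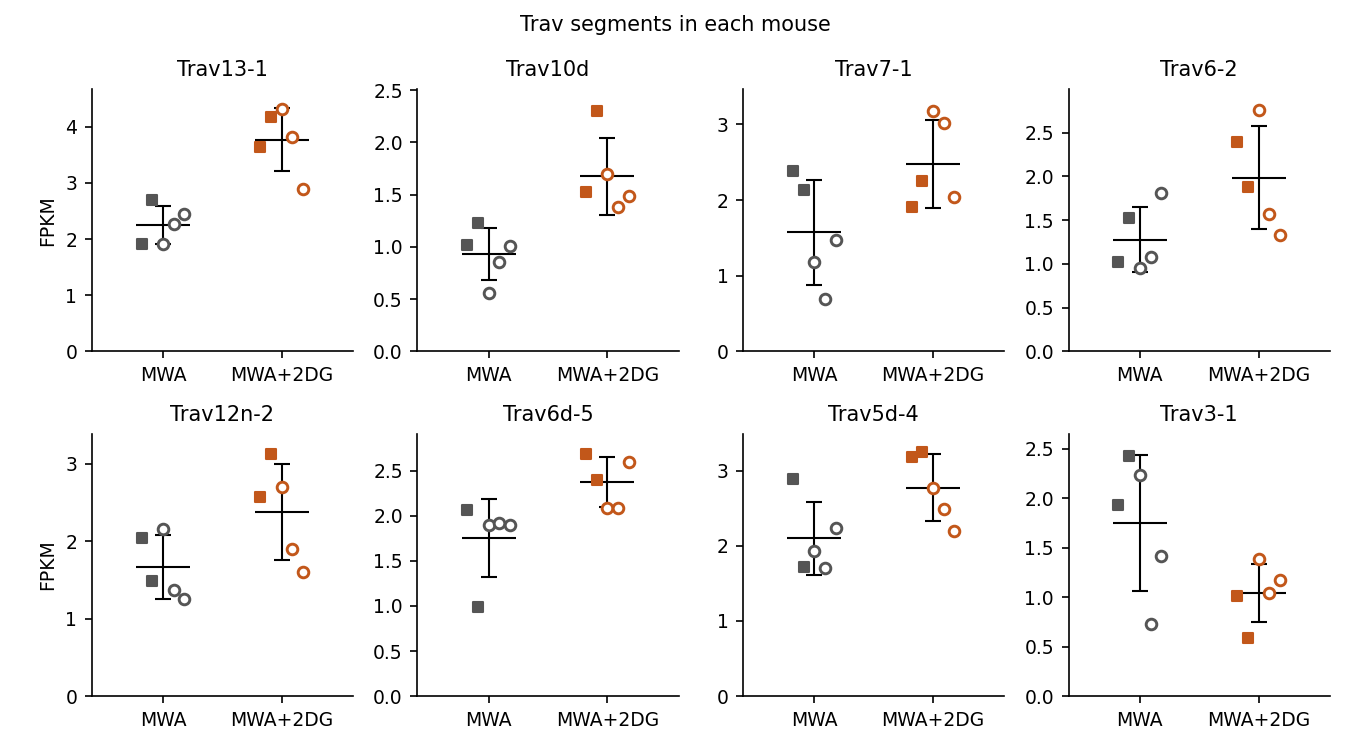
FPKM (y axis, from 0) in each mouse for the 7 Trav segments past the study's rule and for Trav3-1, by group (x axis); filled squares are replicates 1 and 2, open circles replicates 3 to 5, and bars are mean and SD (n = 5). Trav13-1, Trav10d and Trav6d-5 have separate groups, with Trav6d-5 separated by the narrowest margin, from 2.07 to 2.09 FPKM.

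The segments of highest level are given next. Trav8d-1 was at 7.08, 5.46, 6.28, 6.65 and 8.02 FPKM in the MWA mice and at 9.63, 9.60, 7.35, 6.56 and 3.76 FPKM in the MWA+2DG mice, so that the MWA+2DG group held both the highest and the lowest values (log2 fold change 0.07, exact permutation p = 0.786). Trav14d-3-dv8 was between 4.62 and 5.44 FPKM in all MWA mice, and at 10.3, 9.79, 5.39, 4.67 and 4.47 FPKM with 2DG. Replicates 1 and 2 of the MWA+2DG group were thus far above the other 8 mice, and the log2 fold change over all mice was 0.31 (exact permutation p = 0.349). Of the 12 highest segments none passed the study's rule, and their log2 fold changes ran from -0.04 (Trav16d-dv11) to 0.31 (Trav14d-3-dv8). Among the tested segments the spread over the 10 mice was smallest for Trav14n-1 (SD 0.165 of the mean) and largest for Trav7d-2 (0.544 of the mean). Only 0.5% of the stretches of read length of Trav7d-2 were unique. The part of read division with its copy Trav7-2 in this spread was not tested. Trav14n-1 had an exact permutation p of 0.0159 and missed the rule on size, with a log2 fold change of 0.25 that lies just under the threshold.

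As a share of the Trav signal, which sets aside the total of each mouse, fewer segments differed. In a fit with each library divided by its own Trav sum, 2 of 61 segments were higher with 2DG by the study's rule (3.28%, against 0.0525% of all genes), and 1 was lower (1.64%, against 7.48%). Trav10d was among those higher, and it entered the fit through its level with 2DG. The median log2 fold change of the shares was 0.00, against -0.14 over all genes, since dividing by the Trav sum lowers other genes in the MWA+2DG group. The rates over all genes in this fit are shifted by the same division. They are thus no reference rate for Trav shares, and the counts by share are not read as an excess. None passed an adjusted p of 0.05 (limma, smallest adjusted p of a Trav segment 0.627), and 0 segments had separate shares, against 0.0% of all genes higher and 1.12% lower.

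Trav13-1 held 1.06%, 1.77%, 1.32%, 1.49% and 1.38% of the Trav signal in the MWA mice and 1.54%, 1.98%, 2.38%, 2.18% and 2.26% in the MWA+2DG mice. Of the latter, 1 value lay within the MWA range and 4 above it. The log2 fold change of the share was 0.42 (standard error 0.14, exact permutation p = 0.0159). Trav10d held 0.576% ± 0.150 and 0.923% ± 0.212 (SD, n = 5 each), with 0.38 as the log2 fold change. Its call by share was lost without MWA replicate 3 or MWA+2DG replicate 2. Trav3-1 was the lower one, with shares of 1.07%, 1.59%, 1.53%, 0.480% and 0.796% in the MWA mice and 0.428%, 0.277%, 0.765%, 0.593% and 0.911% in the MWA+2DG mice. Its FPKM was 1.93, 2.43, 2.23, 0.731 and 1.41 in the MWA mice and 1.01, 0.585, 1.38, 1.04 and 1.17 with 2DG. By share, MWA replicates 4 and 5 lay in the range of the MWA+2DG mice, and the log2 fold change of the share was -0.49 (standard error 0.21, exact permutation p = 0.0794). The call was lost in 6 of the 10 fits with 1 mouse left out.

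Summing copies is less open to the division of reads among near-identical sequences, but does not remove it. Some near relatives carry different numbers and stay in separate sums, such as Trav3-1 and Trav3-4 (97.78% identical). With d and n copies added to their parent segment, 6 of 41 sums (14.6%) passed the study's rule, all higher with 2DG, against 0.946% of all features of that fit: Trav13-1, Trav7-1, Trav6-5, Trav6-2, Trav12-2 and Trav5-4. The Trav13-1 set was at 2.79 ± 0.532 FPKM and 4.40 ± 0.938 FPKM (SD, n = 5 each), a log2 fold change of 0.50, and its groups overlapped because Trav13d-1 added 1.77 FPKM in MWA replicate 1 and none in MWA+2DG replicate 5. The Trav10 set, with a log2 fold change of 0.22, did not pass. Of 16 families tested, 1 passed (6.25%, against 0.911% of all genes of that fit). It was Trav13, with 8.36 ± 1.02 FPKM and 11.1 ± 2.31 FPKM and a log2 fold change of 0.36 (standard error 0.15). As a share of the Trav signal the Trav13 family had a log2 fold change of 0.19. In level, 14 of the 16 families had a log2 fold change above 0, against 52.5% of all genes of that fit.

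Segments were also grouped by sequence uniqueness, with no test between the classes. Of the 33 segments with no unique stretch of read length 17 were tested and 2 passed, and of the 44 with only unique stretches 25 were tested and 3 passed, against 0.952% of all genes higher with 2DG. The medians of their log2 fold changes were 0.22 and 0.12. Copies with the letter n took 19.2% ± 1.25 of the Trav signal in the MWA group and 20.3% ± 0.550 in the MWA+2DG group, and 4 of 5 mice given 2DG exceeded the whole MWA range. The d copies took 36.1% ± 1.49 and 36.1% ± 1.19 (SD, n = 5 each).

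Within the replicate sets the Trav segments gave different pictures. In replicates 1 and 2 alone (2 mice against 2), the summed Trav signal was 166.3 FPKM for MWA and 224.1 FPKM for MWA+2DG, a ratio of 1.347. In replicates 3 to 5 (3 against 3), it was 158.5 and 161.7 FPKM, a ratio of 1.02. By the study's rule 24 of 68 tested segments were higher in replicates 1 and 2 (35.3%, against 2.89% of all genes) and 1 was lower. In replicates 3 to 5, 3 of 60 were higher (5.0%, against 1.26%) and 2 were lower. The lower counts have no share over all genes beside them and are descriptions only. The filter of 1 FPKM was applied anew to the mice of each set, so some segments entered through their level with 2DG. Trav19, called in replicates 1 and 2, had 0.954 and 0.328 FPKM there with MWA and 2.08 and 1.56 FPKM with 2DG. No count limited to segments with both group means of 1 FPKM or more is given for the sets, so the higher counts are descriptions too. The median log2 fold change was 0.34 in replicates 1 and 2 and -0.0048 in replicates 3 to 5, against 0.0052 and 0.0093 over all genes. With the set as a term in 1 fit over all mice, 8 of 61 were higher by the rule (13.1%, against 1.16%).

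The difference between the sets was tested as an interaction in limma over all genes. At an unadjusted P below 0.05 it was present for 12 of the 61 segments (19.7%, against 2.56% of all genes), and for none at an adjusted p of 0.05 (smallest adjusted p 0.4899). In 11 of the 12 the effect of 2DG was lower in replicates 3 to 5, and in Trav7-1 it was higher. No share over all genes is given for either direction. Some of the 12 are near-identical copies, such as Trav7-4 and Trav7d-4 (99.63% identical), so the direction is a description only. Trav14d-3-dv8 differed most clearly, with log2 fold changes of 0.88 in replicates 1 and 2 and -0.07 in replicates 3 to 5 (limma interaction, adjusted p = 0.4899). The liver genes and other markers also differ between the sets, and their part in this was not tested.

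Trav13-1 passed the study's rule in both sets, with log2 fold changes of 0.58 (standard error 0.15) in replicates 1 and 2 and 0.54 (standard error 0.15) in replicates 3 to 5. Trav10d, which entered through its level with 2DG, had 0.45 and 0.49 in these sets and also passed. Of all segments called in both sets, 2 moved the same way, and Trav15n-1 moved in opposite directions, with 0.48 in replicates 1 and 2 and -0.42 in replicates 3 to 5. No share over all genes is set beside the calls in both sets, so these are descriptions and not an excess over other genes. Trav15n-1 shares its sequence with Trav15d-1-dv6d-1.

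**Figure D5:**
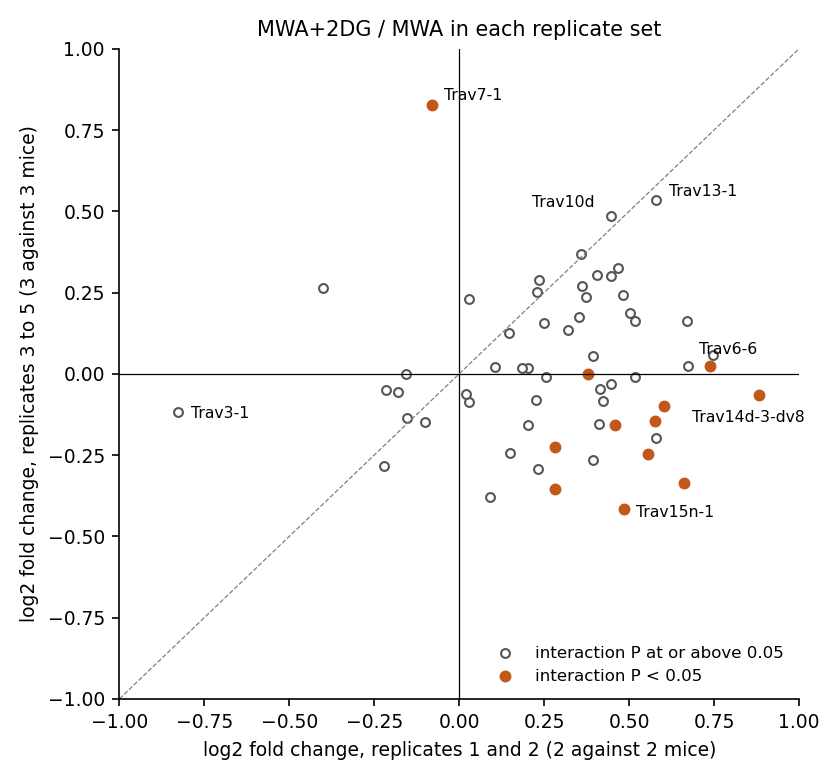
Log2 fold change of MWA+2DG over MWA in replicates 1 and 2 (x axis) and in replicates 3 to 5 (y axis) for the 60 Trav segments tested over all mice and in both sets; filled points had an interaction P under 0.05, and the dashed line marks equal values. Most points lie right of 0 on the x axis and are scattered about 0 on the y axis; Trav13-1 and Trav10d lie near the line of equal values.

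The ratio of Trav to Trac went in opposite directions in the sets. In replicates 1 and 2 both MWA+2DG mice (1.51 and 1.55) lay above both MWA mice (1.27 and 1.22). In replicates 3 to 5 all 3 MWA+2DG mice (1.304 to 1.405) lay below all 3 MWA mice (1.47 to 1.57).

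Other genes of the alpha beta T cell receptor and of T cells were slightly higher on average with 2DG, as the Trav segments were. All 22 genes of a T cell identity list had a log2 fold change above 0, with a median of 0.17, against 52.6% of all genes above 0, and 4 passed the study's rule, against 0.952% of all genes higher with 2DG. Among them were Tcf7 and Lef1 (transcription factors of naive and memory T cells, both with a log2 fold change of 0.31) and Cd8a (the coreceptor for MHC class I, 0.28). Trac itself had 116 ± 18.5 FPKM and 130 ± 23.7 FPKM (SD, n = 5 each), a log2 fold change of 0.15 that did not pass the rule. The summed level of the list was 1448 ± 306 FPKM and 1601 ± 236 FPKM, a ratio of 1.106, and Trav made up 11.4% ± 1.66 and 11.6% ± 1.02 relative to it. The ratio for the list was 1.04 in replicates 1 and 2 and 1.164 in replicates 3 to 5, whereas summed Trav had 1.347 and 1.02. The 8 T cell markers themselves summed to 840 to 1034 FPKM in replicates 1 and 2 and to 590 to 867 FPKM in replicates 3 to 5. Medians of summed markers of other cell types moved both ways between the groups. The 6 dendritic cell markers had a median of 142.6 FPKM (range 107.8 to 203.4) in the MWA group and 158.2 FPKM (143.9 to 180.1) with 2DG. The 6 adipose markers, of which 4 were tested and Lep was under 0.1 FPKM, had 10.75 FPKM (4.533 to 18.13) and 18.69 FPKM (5.063 to 93.85). The 6 gamma delta T cell markers, of which 3 were tested, had close medians of 6.423 FPKM (4.688 to 8.957) and 6.642 FPKM (4.705 to 7.278). Of these, Tcrg-C1 was lower with 2DG, at 2.16 ± 0.966 FPKM and 1.66 ± 0.530 FPKM (SD, n = 5 each). Medians of B cells, natural killer cells, stroma and endothelium were lower. The 6 plasma cell markers had a median of 696.0 FPKM (range 307 to 815.5) in the MWA group and 256.6 FPKM (228.7 to 496.5) with 2DG, and the 6 macrophage markers had 1627 FPKM (1583 to 2481) and 1374 FPKM (1108 to 1644). The 6 neutrophil markers, of which 2 were tested and Mmp8 was under 0.1 FPKM, had 13.52 FPKM (11.65 to 80.89) and 5.08 FPKM (1.705 to 16.09), and the 6 liver genes 189.0 FPKM (66.66 to 209.2) and 114.2 FPKM (61.78 to 165.5). The ranges of the groups overlapped in each, no marker was listed at 0 in every library, and the part of these cells in the Trav results was not tested.

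The J segments, which are joined to the V segments, were low. Of 60 Traj segments 20 were tested, 14 with a log2 fold change above 0, against 52.6% of all genes. The study's rule called 1, Traj7, lower with 2DG, against 1.87% of all genes (2.23 ± 1.54 and 0.740 ± 0.594 FPKM). Their summed level was 48.2 ± 7.91 FPKM for MWA and 61.0 ± 9.60 FPKM for MWA+2DG, a ratio of 1.266, with 3 of 5 mice given 2DG above the MWA range. The summed beta chain V (Trbv) level had a ratio of 1.100. Of 16 genes of the delta and gamma chains in the files 6 were tested, and none passed. Of the 6, 2 had a log2 fold change above 0 and 4 below (median -0.04), against 52.6% of all genes above 0. Nor did any pass of 7 tested genes of V(D)J recombination, among them Lig4, the ligase that seals the joints, or of 3 tested genes of invariant T cells.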

How the data were processed

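The deposited files hold FPKM per Ensembl gene for 10 TDLN libraries. According to the submitters' notes, the authors trimmed reads with cutadapt 1.9 (the study's methods name fastp), used molecular identifiers (UMI-tools), aligned with HISAT2 2.0.4 and computed FPKM with StringTie 1.3.4d on oligo(dT)-selected, strand-marked, paired reads of 150 bases. The notes name the build mm9, but the identifiers belong to a later annotation, so no coordinates are given. The sources used here do not say how reads matching several V segments were divided, and such a division can shift signal between copies.

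Symbols were found for 33541 of 33643 identifiers, and 57 symbols with several identifiers were summed. The reference table names 128 Trav symbols, of which 115 are in the files. Genes averaging 1 FPKM or more were tested with limma 3.58.1 in R 4.3.3 on log2(FPKM + 1), all 10 mice in 1 fit, which understates changes of low genes. A share fit divided each library by its summed Trav FPKM first. Depth is unknown, so no counting error is given. Exact permutation tests compared mean log2(FPKM + 1), or the same of the rescaled share, over all splits of the mice. Mice are the replicates (1 library each). In simulated data for the comparison of MWA+2DG with MWA, 181 of 200 genes changed by a log2 fold change of 1 were recovered among 13334 genes, and 4 unchanged genes were called. The largest Trav log2 fold change over all mice was 0.55, and the simulated noise was independent for each gene. The simulation therefore does not show how often changes of the size seen in Trav segments would be found.

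The members and lists were chosen with earlier results of these data known. Named were the 12 segments of highest mean, those past the study's rule in level or share or with separate groups, the 3 highest tested dv segments, Trav1, Trav11, Trav11d and Trav11n, the extremes of relative spread and the extreme families. Segments set beside them for sharing their sequence or for differing between replicate sets were named after their values were seen. Alternatives changed the filter (none, or 5 FPKM), the pseudocount (0.1) or the scaling (to 1000000 per library, quantile, median ratio), or used limma-trend, the Wilcoxon test, summed copies, the replicate number as a block, the replicate set as a term and leaving out each mouse. The fits within replicate sets, their interaction and the counts over genes with both group means of 1 FPKM or more were added after seeing the data. Values of 1 listed gene are not reported here.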

Additional observations from a re-analysis of the deposited data

Results flagged for a closer look

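In 4 of 52 group-wise comparisons of values among mice, 1 mouse lay far from the other 4 of its group. Chance alone would mark about 1 in 20 such groups. Trav7-4 was at 8.106 FPKM and Trav7d-2 at 6.317 FPKM in MWA+2DG replicate 1, where the next mice of the group had 5.495 and 2.592 FPKM. Trav7-2, 99.26% identical to Trav7d-2, was low in that same mouse, at 0.816 FPKM, against 2.609 FPKM in MWA+2DG replicate 2. The sum of these 2 copies was 7.133 FPKM in MWA+2DG replicate 1 and 5.201 FPKM in MWA+2DG replicate 2. The part of read division between the copies in the Trav7d-2 value was not tested. Trav6d-7 was at 4.987 FPKM in MWA replicate 5, above the next value of 3.761 FPKM. Trav6d-5 was at 0.9932 FPKM in MWA replicate 2, below the next value of 1.894 FPKM.

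The effect of 2DG differed between replicates 3 to 5 and replicates 1 and 2 in 7 of the named segments at an unadjusted interaction P below 0.05 (limma), and in none after adjustment. The difference in log2 fold change (replicates 3 to 5 minus replicates 1 and 2) was -0.80 for Trav8d-1, -0.95 for Trav14d-3-dv8, -0.51 for Trav7-4, -0.71 for Trav6-6, -0.38 for Trav7d-4, -0.72 for Trav6n-6 and 0.91 for Trav7-1. The ratio of Trav to Trac differed between MWA+2DG and MWA by 0.281 in replicates 1 and 2 and by -0.149 in replicates 3 to 5, with no overlap of the groups in either set, and the difference between the sets was not tested for this ratio.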

How the results depend on the processing

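The count of Trav segments past the study's rule, 7, was 12 after rescaling each library to 1000000 (19.7%, against 2.46% of all genes), 3 in the exact Wilcoxon rank-sum test, 0 of 3 with a filter of 5 FPKM, 25 in replicates 1 and 2 alone, and between 3 and 15 with 1 mouse left out. Leaving out MWA+2DG replicate 5 gave 15, MWA+2DG replicate 1 gave 3, and MWA replicate 2 gave 4. At an adjusted p of 0.05 it was 0 in every setting. Rescaling raised the median log2 fold change of all genes to 0.07 and that of the tested Trav segments to 0.23. In replicates 1 and 2 alone the median was 0.3359, and it ranged from 0.0531 to 0.2202 with 1 mouse left out. The count by share, 3, was 5 with a pseudocount of 0.1, 0 with a filter of 5 FPKM, 7 in replicates 1 and 2 alone, and 1 to 6 with 1 mouse left out (6 without MWA replicate 4, 5 without MWA replicate 5, 1 without MWA+2DG replicate 2). The count of families, 1, was 2 with no filter and after rescaling, 0 in the Wilcoxon test, 6 in replicates 1 and 2 alone, 0 higher and 1 lower in replicates 3 to 5 alone, and 0 to 6 with 1 mouse left out, being 1 without MWA replicate 1, 6 without MWA+2DG replicate 5 and 0 otherwise. The count of T cell identity genes, 4, was 8 after rescaling, 1 in the Wilcoxon test and in replicates 3 to 5, 2 in replicates 1 and 2, and 2 to 9 with 1 mouse left out (9 without MWA replicate 1 or MWA+2DG replicate 5, 2 without MWA replicate 2 or MWA+2DG replicate 1 or 3). The rate over all genes higher with 2DG by the rule also moved between settings. It was 0.624% without MWA+2DG replicate 1 and 2.89% in replicates 1 and 2 alone. Counts given here without such a rate beside them are descriptions only, and their changes are not read as particular to Trav or to T cell genes. The log2 ratio of summed Trav ranged from 0.1069 to 0.3158 and the difference in effective number from 0.5547 to 2.6863 with 1 mouse left out.

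Trav13-1 kept its direction in every setting in which it was tested. So did Trav10d, but it entered through its level with 2DG, so this is a description. Direction turned for segments with changes near 0. Within the replicate sets it also turned for segments with larger ones, among them Trav14d-3-dv8, Trav7-1, Trav4-4-dv10 and Trav6d-7. Trav16n, with 0.18 over all mice, was at -0.10 in replicates 3 to 5, and Trav9n-4, with 0.20 over all mice, was at -0.01 there. Trav8d-1 was between -0.026 and 0.2638 with 1 mouse left out (below 0 without MWA+2DG replicate 1 or 2), and at -0.25 in replicates 3 to 5. In that set Trav14d-3-dv8 was at -0.0661, Trav6d-7 at -0.031, Trav6n-6 at -0.15 and Trav7d-2 at -0.20, and Trav7d-2 was between -0.1428 and 0.2468 with 1 mouse left out. Trav7-4 was at 0.0331 after rescaling, 0.28 in replicates 1 and 2 and between -0.14 and 0.0303 with 1 mouse left out. Trav16d-dv11 was at 0.016 and 0.0279 in those settings and between -0.1348 and 0.0682 with 1 mouse left out, Trav7-3 at 0.039 and 0.20 and between -0.0705 and 0.1003. Trav4-4-dv10 was between -0.3562 and 0.0462 with 1 mouse left out and at 0.0911 in replicates 1 and 2, and Trav7-1 at -0.0813 in replicates 1 and 2.

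The labels give both groups the same replicate numbers. Same-numbered mice had correlations of their deviations from the group means of 0.331, 0.501, 0.11, 0.0334 and 0.151, so the numbers were not taken as pairs, and not every mouse correlated best with its own number. With the replicate number as a block 6 segments passed the study's rule (9.84%, against 1.23% of all genes), and with the replicate set as a term 8. The causes of these dependences were not tested. FPKM values without counts limit the precision that can be stated for segments near 1 FPKM.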
